A study of Mus musculus with 2 samples.

Results

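The 7 epithelial keratin genes Krt7, Krt8, Krt18, Krt19, Krt20, Krt5 and Krt15 were followed through single-cell RNA libraries of mouse kidney. They were chosen by gene symbol, and each of the 7 symbols matched 1 of the 32285 genes in the deposited matrices. Of the 2 libraries, the cisplatin library came from mice given cisplatin at 20 mg/kg and the saline library from mice given saline. In both conditions, male C57BL6/J mice aged 10 to 12 weeks (5 mice and 10 kidneys per condition, pooled) were studied at 72 h. Kidney cells were held on magnetic beads against CD31, an endothelial surface protein, and then against podoplanin, so that lymphatic endothelial cells would be enriched. There was 1 library per condition. No difference below therefore has a replicate check, and each interval is an exact 95% binomial interval that covers counting error only.

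Keratins are the intermediate filament proteins of epithelial cells. A filament is built from pairs of 1 type I and 1 type II keratin, and the pair made by a cell depends on its kind. Krt8 and Krt7 (type II) and Krt18, Krt19 and Krt20 (type I) belong to simple epithelia, such as those that line ducts and tubules, with Krt20 best known from gut and urothelial surface cells. Krt5 (type II) and Krt15 (type I) belong to the basal layer of stratified epithelia and of urothelium, the lining of the renal pelvis and bladder. In the kidney, Krt8, Krt18, Krt7 and Krt19 are known from collecting duct and other distal tubule cells, and in mice Krt8, Krt18 and Krt20 are known to be induced in injured tubules. Endothelial cells and leukocytes are marked by another intermediate filament protein, vimentin.

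The unit was the unique molecular identifier (UMI), 1 for each captured transcript, and a level is given in counts per 1000000 UMIs of a pool of barcodes (CPM). The matrices were unfiltered and held 19994105 UMIs in the cisplatin library and 5879496 UMIs in the saline library. Of the barcodes, 3441 reached 500 UMIs in the cisplatin library (median 674 UMIs) and 630 did so in the saline library (median 894 UMIs), and the libraries shared 0 of these barcodes. Barcodes of 1 to 100 UMIs, called near-empty droplets here, show the RNA that floats free in the suspension. Mitochondrial genes held 23.8% of UMIs in cisplatin barcodes of at least 500 UMIs and 2.46% in those of the saline library. In near-empty droplets these shares were 30.6% in the cisplatin library and 3.84% in the saline library. The labelled cell type was hardly detected. Prox1, the lymphatic transcription factor, had a UMI in 17 of 3441 cisplatin barcodes and 4 of 630 saline barcodes, and Lyve1 in 1 barcode of each library. Pecam1, which encodes CD31, had a UMI in 10.3% of cisplatin barcodes and 49.8% of saline barcodes. In pooled barcodes, fewer cells of a type and less RNA per cell cannot be told apart.

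Most keratin UMIs, like most UMIs of all genes, lay outside the barcodes that could be taken for cells. The 7 genes together had 4094 UMIs in the cisplatin library and 455 UMIs in the saline library. In the cisplatin library 10.99% of them were in near-empty droplets, 57.1% in barcodes of more than 100 but fewer than 500 UMIs, 12.2% in barcodes of at least 500 but fewer than 10000 UMIs and 19.7% in the 49 barcodes of at least 10000 UMIs. In the saline library 70.1% were in near-empty droplets, 20.2% in barcodes of more than 100 but fewer than 500 UMIs, 5.93% in barcodes from 500 UMIs up to 10000 UMIs and 3.74% in the 15 barcodes of at least 10000 UMIs. Over all barcodes, Krt7 had 1645 UMIs in the cisplatin library and 293 in the saline library. Krt8 had 1202 cisplatin and 94 saline UMIs, and Krt18 had 666 cisplatin and 56 saline UMIs. Krt20, Krt15, Krt19 and Krt5 had 315, 132, 107 and 27 UMIs in the cisplatin library, the deeper of the 2, against 1, 5, 6 and 0 UMIs in the saline library. As a level over all barcodes, Krt20 was at 15.8 CPM in the cisplatin library and 0.170 CPM in the saline library, Krt15 at 6.60 CPM in cisplatin and 0.850 CPM in saline, and Krt19 at 5.35 CPM in cisplatin and 1.02 CPM in saline. The basal pair stood apart in the cisplatin library, where the barcodes of at least 10000 UMIs held 75.0% of all Krt15 UMIs and 51.9% of all Krt5 UMIs, against 8.89% for Krt20 and 26.1% for Krt18.

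**Figure D1:**
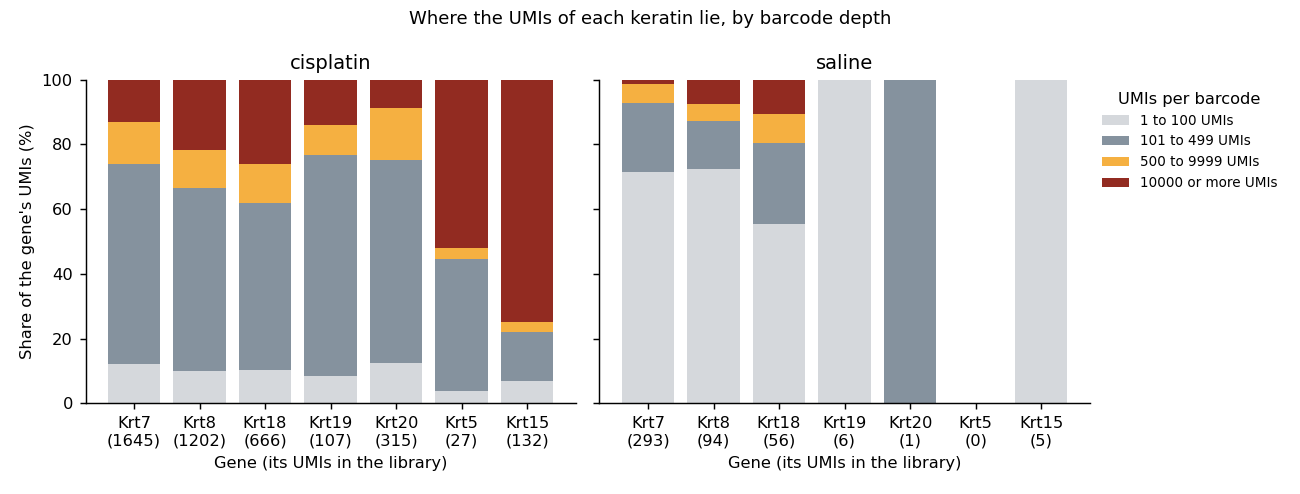
Share of each keratin's UMIs (%) by the depth of the barcode that held them, in the cisplatin library (left) and the saline library (right), with each gene's UMIs in brackets. The dark red part, barcodes of at least 10000 UMIs, reaches 75.0% for Krt15 in the cisplatin library. Near-empty droplets hold 71.3% of Krt7 UMIs in the saline library, and 63.0% of the UMIs of all genes there.

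The free RNA of the cisplatin library was the richer in keratin transcripts. In near-empty droplets the 7 genes summed to 210 CPM in the cisplatin library (450 UMIs) and 86.1 CPM in the saline library (319 UMIs), a ratio of 2.44 (interval 2.11 to 2.83). Krt7 was at 94.4 CPM in cisplatin droplets and 56.4 CPM in saline droplets, 1.67-fold higher (1.37 to 2.04). Krt8 was at 56.5 CPM in cisplatin droplets and 18.4 CPM in saline droplets, 3.08-fold higher (2.27 to 4.21). Its filament partner Krt18 was at 32.2 CPM in cisplatin droplets and 8.37 CPM in saline droplets, 3.85-fold higher (2.49 to 6.09). Krt20 showed the widest gap of the simple keratins, with 39 UMIs (18.2 CPM) in cisplatin droplets and 0 UMIs in saline droplets. Set against a floor of 3 UMIs over the saline pool, Krt20 was at least 22.5-fold higher. Krt19 had 9 UMIs in cisplatin droplets and 6 in saline droplets, a ratio of 2.60 (0.825 to 8.86). Krt15 had 9 cisplatin and 5 saline UMIs, a ratio of 3.11 (0.937 to 11.8), so that neither ratio had an interval clear of 1. Krt5 had 1 UMI in cisplatin droplets and 0 in saline droplets. Of the 4 members with at least 20 UMIs in these pools, 4 were at least 1.5-fold higher in the cisplatin library and 0 lower. Krt20 passed that filter through the cisplatin droplets alone, so it had to be higher, and Krt7, Krt8 and Krt18 had UMIs in both libraries. Of all 12375 genes measured the same way, 17.9% were at least 1.5-fold higher and 24.9% lower, with a median of -0.07. The mitochondrial share of these droplets was also the higher in the cisplatin library, which lowers the CPM of other genes there. Its part in the result was not tested beyond a change of scale. With CPM taken over other genes only, the ratio of the sum was 3.38. Near-empty droplets held 10.7% of all UMIs in the cisplatin library and 63.0% in the saline library. In barcodes of more than 100 but fewer than 500 UMIs the ratio of the sum was 1.99 (1.62 to 2.48). Krt7 was 1.26-fold higher there (0.978 to 1.66), an interval that includes 1. In the same barcodes Krt8 was 3.79-fold (2.24 to 6.97) and Krt18 1.92-fold higher (1.13 to 3.55).

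In barcodes of at least 500 UMIs the difference between libraries was wider. The sum was 292 CPM in the cisplatin library (1305 UMIs) and 39.0 CPM in the saline library (44 UMIs), a ratio of 7.48 (5.54 to 10.3). Krt7 was at 95.4 CPM in cisplatin barcodes and 18.6 CPM in saline barcodes, 5.13-fold higher (3.31 to 8.37). Krt8 was at 90.1 CPM in cisplatin barcodes and 10.6 CPM in saline barcodes, 8.47-fold higher (4.79 to 16.5). Krt18 was at 56.8 CPM in cisplatin barcodes and 9.75 CPM in saline barcodes, 5.82-fold higher (3.20 to 11.8). The other 4 genes had 0 UMIs in the saline pool. Against its floor of 3 UMIs, Krt15 (103 UMIs in the cisplatin pool) was at least 8.66-fold higher, Krt20 (78 UMIs) at least 6.56-fold, Krt19 (25 UMIs) at least 2.10-fold and Krt5 (15 UMIs) at least 1.26-fold. Of the 6 members with at least 20 UMIs, which leaves out Krt5, 6 were at least 1.5-fold higher in the cisplatin library, where 29.5% of 12243 genes were higher and 27.7% lower. Krt19, Krt20 and Krt15 passed the filter through the cisplatin pool alone and so had to be higher, which leaves Krt7, Krt8 and Krt18 as the 3 members with UMIs in both pools. Markers of the other cell types moved between these pools as well. The 18 endothelial markers summed to 3452 CPM in the cisplatin library and 10101 CPM in the saline library, and the 10 loop of Henle and distal tubule markers to 1896 CPM in the cisplatin library and 522 CPM in the saline library. Leukocyte markers summed to 1327 CPM in the cisplatin library and 125 CPM in the saline library. The part of this change in cell makeup was not tested.

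**Figure D2:**
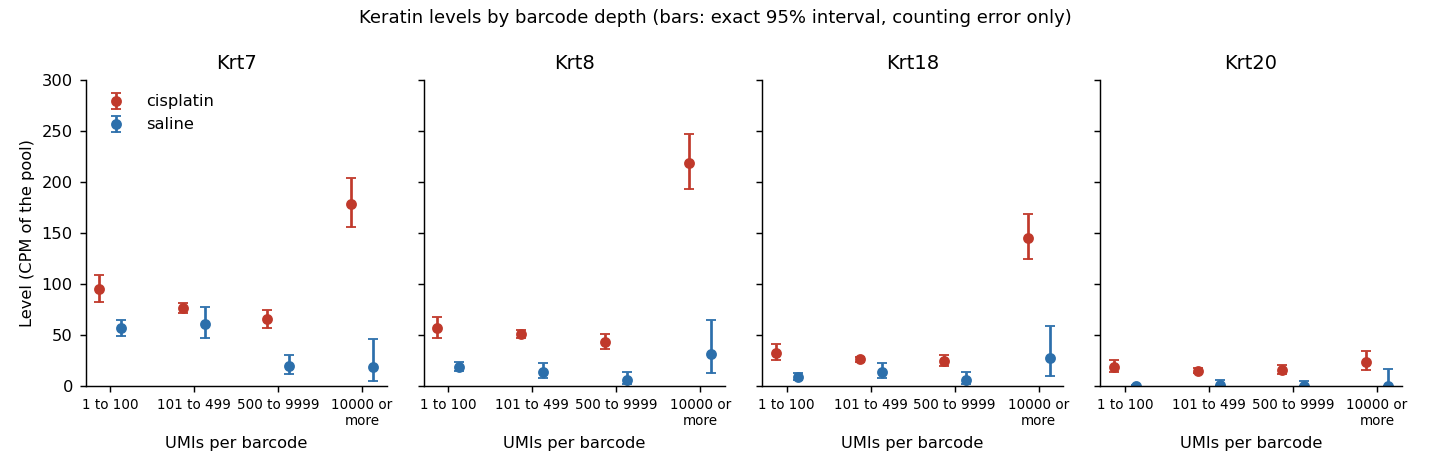
Level of Krt7, Krt8, Krt18 and Krt20 (CPM of the pool) by barcode depth, cisplatin left of saline within each pair, with exact 95% intervals for counting error. The 3 cisplatin points below 10000 UMIs lie under that of the deepest pool for each gene, and the levels of 218 CPM for Krt8 and 145 CPM for Krt18 are those of barcodes of at least 10000 UMIs.

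Among cisplatin barcodes of at least 500 UMIs, the deepest ones held much of the keratin signal. The 49 cisplatin barcodes of at least 10000 UMIs held 806 of the 1305 keratin UMIs (61.8%), at 671 CPM, and 35 of the 49 held at least 1. The share they held was 50.1% for Krt7, 65.0% for Krt8, 68.5% for Krt18 and 35.9% for Krt20, with 15 of 25 UMIs for Krt19, and the 806 UMIs include 99 of Krt15 and 14 of Krt5. In the saline library 1 of 15 such barcodes held any, with 17 of the 44 keratin UMIs (38.6%), at 75.6 CPM for the pool. Krt8 reached 218 CPM and Krt18 145 CPM in the deep cisplatin barcodes, which was 3.86 times (3.1 to 4.83) and 4.50 times (3.38 to 6.03) their near-empty level. Krt7 reached 178 CPM there, 1.89 times its near-empty level (1.55 to 2.30). For Krt20 the level of 23.3 CPM was 1.28 times that of near-empty droplets, with an interval of 0.759 to 2.13 that includes 1.

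Below 10000 UMIs the summed keratin level lay under the near-empty level as defined here. The 3392 cisplatin barcodes from 500 UMIs up to 10000 UMIs held keratins at 152 CPM, 0.725 times the near-empty level (0.637 to 0.825). The 615 saline barcodes of that depth held them at 29.9 CPM, 0.347 times the near-empty level of their library. In the cisplatin library each of the 7 genes was below its near-empty level in these barcodes, with Krt7 at 0.689 times (0.566 to 0.840) and Krt8 at 0.762 times (0.593 to 0.979), although the intervals of Krt18, Krt19, Krt20, Krt5 and Krt15 include 1. The ratios to near-empty droplets depend on the range taken as near-empty. With droplets of 1 to 50 UMIs the cisplatin near-empty level of the sum was lower, which raises the 0.725. The intervals do not cover this choice, and the raised value is not given here. The cisplatin to saline ratio of the sum was 5.10 (3.46 to 7.82) at this depth. Of the 4 members with at least 20 UMIs, 4 were at least 1.5-fold higher in the cisplatin library, where 29.1% of all 11623 genes were higher and 33.6% lower. Krt20, with 50 UMIs in cisplatin and 0 in saline barcodes of this depth, passed the filter through the cisplatin library alone.

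**Figure D3:**
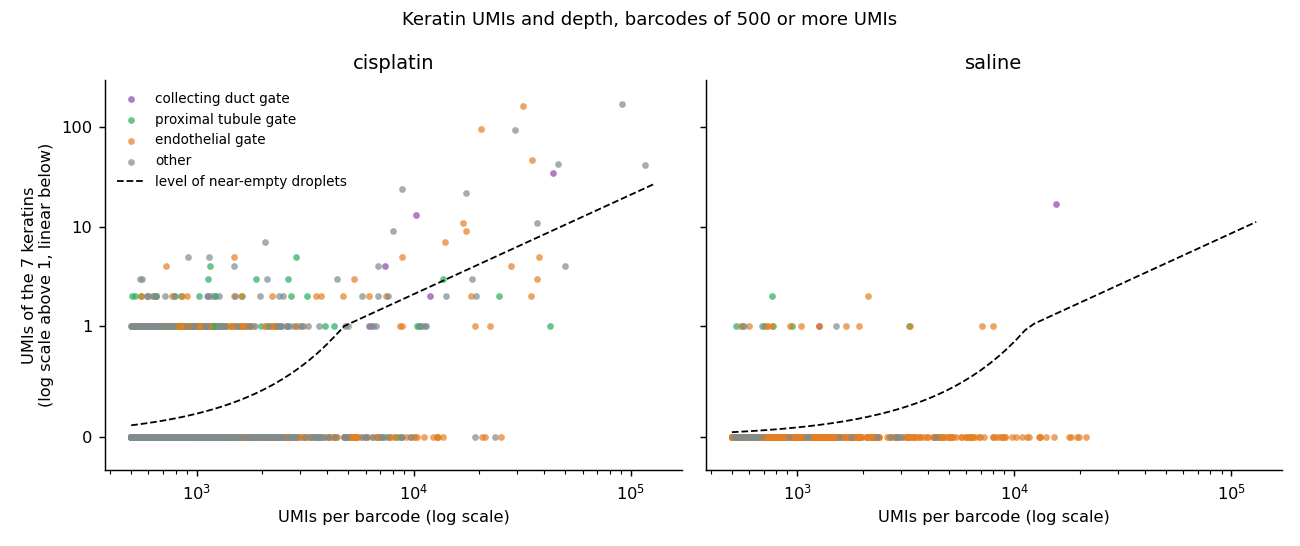
UMIs of the 7 keratins in each barcode of at least 500 UMIs against all UMIs of that barcode, in the cisplatin library (left) and the saline library (right), coloured by marker gate. The dashed line is the number that the near-empty level of the library would give. The cisplatin barcodes with 93 to 170 keratin UMIs lie far above it, and the saline library has 1 barcode above 10, with 17.

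The single deepest barcode contributed little. In the cisplatin library it had 116215 UMIs, of which 29 were Krt7, 8 Krt8 and 5 Krt18, with 0 of the other 4 genes. That was 42 of the 1305 keratin UMIs in barcodes of at least 500 UMIs, or 3.22% (2.33% to 4.33%), and 1.03% of the 4094 in the library. This barcode carried markers of several cell types, with 1344 UMIs of 17 of the 18 endothelial markers and 699 UMIs of 10 of the 14 collecting duct markers. The deepest saline barcode, of 21265 UMIs, held 0 of the 44 keratin UMIs.

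Of the other cisplatin barcodes, 6 held more. The richest was the second deepest cisplatin barcode, of 91183 UMIs, with 69 Krt8, 45 Krt7, 42 Krt18 and 14 Krt20 UMIs. Its 170 keratin UMIs were 13.0% of those in cisplatin barcodes of at least 500 UMIs, and 494 of its UMIs came from 6 of the 10 loop and distal tubule markers, 346 of them Wfdc2, a secreted protein of distal nephron epithelium. A barcode of 20461 UMIs had 55 Krt8, 19 Krt18, 13 Krt20, 8 Krt7 and 2 Krt19 UMIs. Its loop and distal markers were 39 Wfdc2 UMIs and 1 Cldn16 UMI, so the assignment rests on Wfdc2. A barcode of 29378 UMIs had 48 Krt8, 33 Krt18, 11 Krt7 and 1 Krt19 UMIs, beside 60 UMIs of Slc12a3, the sodium chloride cotransporter of the distal convoluted tubule, 35 of Calb1 and 95 of Klk1. In these barcodes Krt8 was the most frequent keratin, whereas the deepest barcode held more Krt7 than Krt8.

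Of the 3441 cisplatin barcodes, 23 held at least 5 keratin UMIs, and these 23 held 833 of the 1305 (63.8%). The marker list with the most UMIs, of 9 lists compared, was that of the loop and distal tubule in 14 of the 23, of the collecting duct in 4, of the endothelium in 3 and of the proximal tubule in 2. Wfdc2 was detected in 22, Umod, the uromodulin of the thick ascending limb, in 15, and Aqp2, the water channel of collecting duct principal cells, in 7. Of the 23, 15 had at least 10000 UMIs, and how often other barcodes of that depth held these markers is not given here. In the saline library 1 of 630 barcodes held at least 5 keratin UMIs. It had 15630 UMIs, with 7 Krt8, 6 Krt18 and 4 Krt7, and carried 453 UMIs of 9 of the 14 collecting duct markers, 178 of them Aqp2. Among the 49 deep cisplatin barcodes, the 11 with most UMIs in the loop and distal list held keratins at 1506 CPM (1375 to 1646), and the 5 with most in the collecting duct list at 589 CPM (461 to 740). The 20 with most in the endothelial list were at 450 CPM (395 to 511), where 1 barcode, described next, gave 163 of 240 UMIs. The 4 with most in the proximal tubule list were at 88.4 CPM, and the 5 with most in the list of mural and stromal cells held 0 keratin UMIs. The lists differ in size and abundance, and several of these barcodes carried markers of more than 1 cell type. Sparse barcodes made up the rest, since 311 of the 402 cisplatin barcodes and 23 of the 26 saline barcodes with any keratin UMI had exactly 1.

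In cisplatin barcodes of at least 500 UMIs, 1 barcode held most of the basal keratin UMIs. This barcode, of 31899 UMIs, held 99 of the 132 Krt15 UMIs of the library (75.0%, 66.7% to 82.1%), which was 96.1% of those in barcodes of at least 500 UMIs. It also held 14 of the 27 Krt5 UMIs (51.9%, 32.0% to 71.3%) and 11 of the 107 Krt19 UMIs (10.3%, 5.25% to 17.6%), beside 15 Krt7, 13 Krt18, 11 Krt8 and 0 Krt20 UMIs. Together these were 163 keratin UMIs, or 5110 CPM, in a barcode with a mitochondrial share of 2.73%. It had 37 UMIs from 7 of the 10 urothelial markers. They were 11 of Upk1b, a uroplakin of the urothelial surface, 9 of Gata3, a transcription factor of urothelium and collecting duct, 7 of Sprr1a, 4 of Trp63, the p63 factor of basal epithelial cells, 3 of Foxa1, 2 of Ly6d and 1 of Psca. The uroplakins Upk1a, Upk2 and Upk3a were at 0. The same barcode had 201 UMIs of 15 of the 18 endothelial markers, which put it in the endothelial gate, and 54 of Wfdc2. Whether it held 1 cell or several was not tested. In all other cisplatin barcodes of at least 500 UMIs Krt15 had 4 UMIs and Krt5 had 1, so the ratios of these genes between libraries rest on that barcode.

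**Figure D4:**
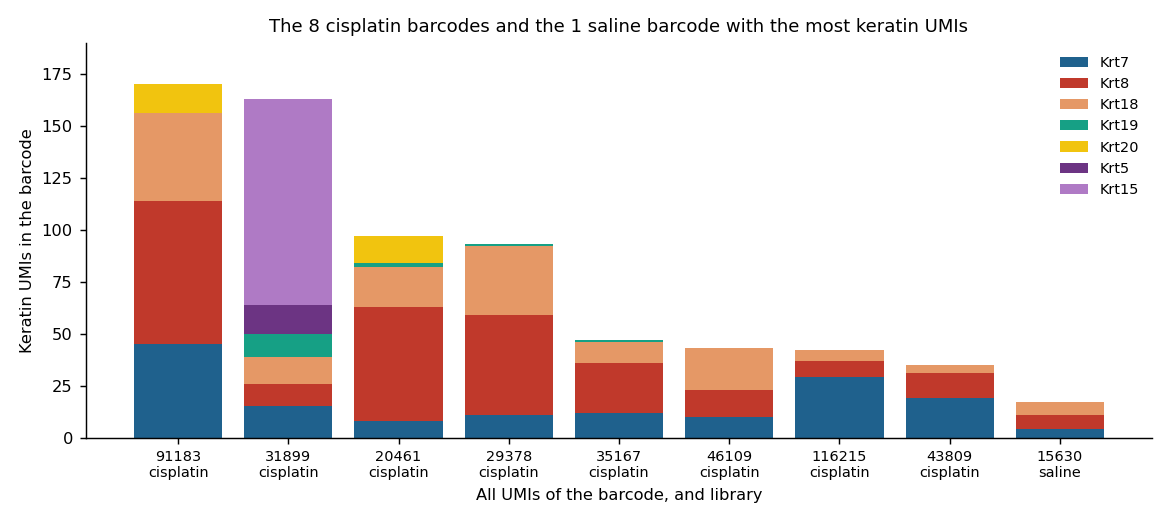
Keratin UMIs by gene in the 8 cisplatin barcodes and the 1 saline barcode with the most, labelled by all UMIs of the barcode. Krt8, Krt18 and Krt7 make up most of 8 of the 9 bars, with Krt20 in the cisplatin barcodes of 91183 and 20461 UMIs, while Krt15 and Krt5 appear in the cisplatin barcode of 31899 UMIs.

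Barcodes of at least 500 UMIs were sorted by distinct markers into a collecting duct gate, a proximal tubule gate, an endothelial gate and a remainder called other, with no keratin used. A collecting duct or endothelial call needed at least 2 markers of its list and a proximal tubule call at least 4. Barcodes with both collecting duct and endothelial markers, 76 in the cisplatin library and 8 in the saline library, were placed in other. The collecting duct gate held 78 cisplatin and 7 saline barcodes, the proximal tubule gate 1361 cisplatin and 88 saline barcodes, the endothelial gate 806 cisplatin and 500 saline barcodes, and other 1196 cisplatin and 35 saline barcodes. Only the number of distinct markers counted, so a very deep barcode could enter a gate on a small share of its UMIs, and 25 of the 49 deep cisplatin barcodes stood in the endothelial gate.

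In the collecting duct gate the keratins were at 426 CPM in the cisplatin library (65 UMIs) and 833 CPM in the saline library (18 UMIs), a ratio of 0.512 (0.300 to 0.917). Krt7 was at 216 CPM in cisplatin and 231 CPM in saline barcodes of this gate. Krt8 was at 131 CPM in cisplatin and 324 CPM in saline barcodes, and Krt18 at 78.7 CPM in cisplatin and 278 CPM in saline barcodes. The other 4 genes had 0 UMIs there in either library. Of 2 members measured, 0 were at least 1.5-fold higher and 1, Krt8, was lower, where 18.8% of 1093 genes were higher and 41.4% lower. The Krt8 ratio was 0.405 (0.165 to 1.13), an interval that includes 1, and its 7 saline UMIs were all in 1 barcode. The saline value of the sum rests on that same barcode, of 15630 UMIs, which gave 17 of the 18 UMIs. Without it the ratio of the sum turned to 2.55 (0.442 to 102). The richest cisplatin barcode, also left out there, was not in this gate. Without the richest barcode of the gate in each library, 30 UMIs were left in the cisplatin gate and 1 in the saline gate, a ratio of 1.65 (0.275 to 67.5). Without barcodes of at least 10000 UMIs it was 1.04. The 12 UMIs left in 10 cisplatin barcodes below 10000 UMIs whose collecting duct markers made up at least 0.5% of their UMIs gave 730 CPM, 3.47 times the near-empty level (1.78 to 6.12). This was the only gate under that rule in which cisplatin barcodes below 10000 UMIs were above the near-empty level as defined here.

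In the proximal tubule gate the sum was 140 CPM in the cisplatin library (169 UMIs) and 126 CPM in the saline library (8 UMIs), a ratio of 1.11 (0.551 to 2.62). Krt7 was at 59.7 CPM in cisplatin and 78.8 CPM in saline barcodes. Krt8 was at 41.5 CPM in cisplatin and 31.5 CPM in saline barcodes, and Krt18 at 19.1 CPM in cisplatin and 15.8 CPM in saline barcodes. Of the 3 members measured, 0 passed 1.5-fold in either direction, where 16.1% of all 7941 genes were higher and 31.3% lower. Krt20 had 19 UMIs in cisplatin and 0 in saline barcodes, which the shallow saline pool does not allow to be called a difference. The cisplatin level was 0.667 times that of near-empty droplets (0.555 to 0.798). The saline level was 1.47 times that of near-empty droplets (0.627 to 2.92).

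In the endothelial gate the sum was 321 CPM in the cisplatin library (479 UMIs) and 14.9 CPM in the saline library (15 UMIs), a ratio of 21.5 (12.9 to 38.7). Krt8 was at 87.9 CPM in cisplatin and 2.99 CPM in saline barcodes. Krt7 was at 79.8 CPM in cisplatin and 7.97 CPM in saline barcodes, and Krt18 at 45.6 CPM in cisplatin and 3.99 CPM in saline barcodes. Of the 5 members measured, 5 were at least 1.5-fold higher in the cisplatin library, where 27.3% of 10161 genes were higher and 21.7% lower. Krt20 and Krt15 were measured through the cisplatin barcodes alone and so had to be higher. Krt8 and Krt18 had 3 and 4 saline UMIs, so that passing the filter also fixed their direction. That leaves Krt7, with 119 cisplatin and 8 saline UMIs. Deep barcodes carried the value of the sum. Below 10000 UMIs the gate was at 129 CPM in the cisplatin library, 0.614 times the near-empty level (0.5 to 0.749), and at 18.9 CPM in the saline library, 0.219 times (0.121 to 0.367). With endothelial markers at 0.5% or more of the UMIs, 256 cisplatin barcodes below 10000 UMIs were at 71.1 CPM, 0.338 times the near-empty level (0.227 to 0.487), and 436 saline barcodes at 13.4 CPM, 0.156 times (0.0740 to 0.290).

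The remaining barcodes, other, were at 364 CPM in the cisplatin library (592 UMIs) and 75.6 CPM in the saline library (3 UMIs), a ratio of 4.82 (1.64 to 23.4). Of the 4 members measured, 2, Krt7 and Krt8, were at least 1.5-fold higher and 0 lower, where 7.37% of 8665 genes were higher and 40.4% lower. The Krt7 ratio was 1.65 on 3 saline UMIs (0.557 to 8.07), an interval that includes 1. Krt8 was measured through the cisplatin barcodes alone, and its value is a floor bound of at least 1.64. Krt8 had 202, Krt18 151 and Krt20 29 UMIs in cisplatin barcodes and each had 0 in saline barcodes, so that none of the 3 could be called lower, and for Krt18 and Krt20 the floor of the small saline pool allows no call. The barcodes in other were sorted further by 6 smaller lists alone, those of leukocytes, podocytes, urothelium, mesothelium, loop and distal tubule, and mural and stromal cells. The loop and distal list led in 180 cisplatin barcodes, which held 415 of the 592 UMIs, at 764 CPM, and in 12 saline barcodes, which held 3 UMIs, at 261 CPM. Of the 415 UMIs, 355 were in the 7 barcodes with at least 5 keratin UMIs. The remaining 173 cisplatin barcodes held 60 UMIs, at 187 CPM. They were chosen by holding fewer than 5 keratin UMIs, which lowers this level by selection, so it cannot be set against near-empty droplets. Markers of both collecting duct and endothelium were present in 43 of the 180 cisplatin and 4 of the 12 saline barcodes. The 75 cisplatin barcodes led by leukocyte markers were at 28.4 CPM, from 5 UMIs. That was 0.135 times the near-empty level (0.0437 to 0.318). The 3 saline barcodes led by leukocyte markers held 0 UMIs. No barcode within other was led by urothelial or mesothelial markers.

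**Figure D5:**
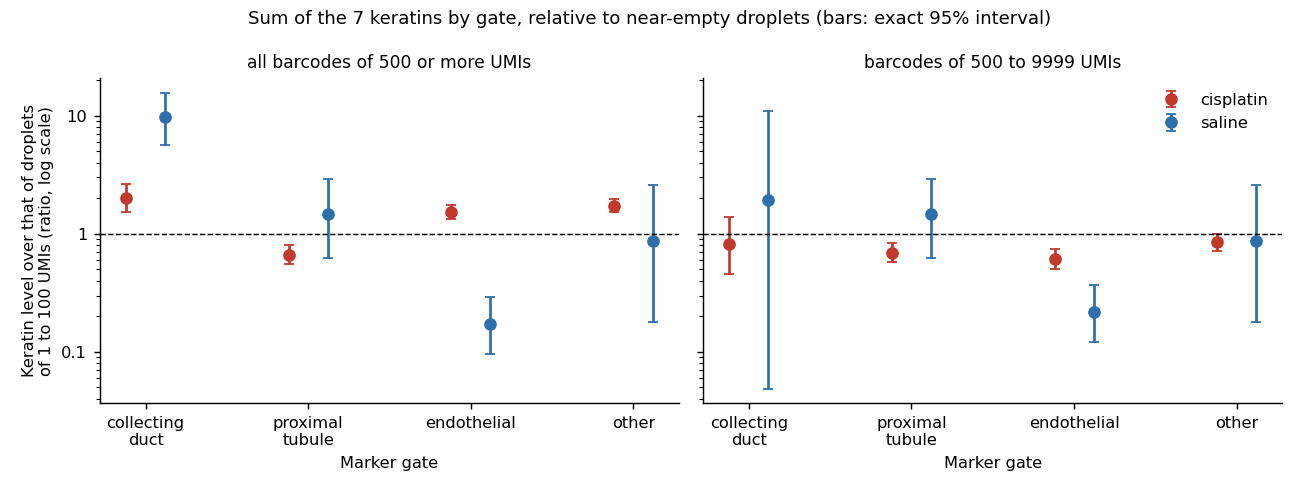
Level of the 7 keratins by marker gate as a ratio to near-empty droplets of the same library (log axis), cisplatin left of saline, with exact 95% intervals, for all barcodes of at least 500 UMIs (left) and for those below 10000 UMIs (right). The cisplatin endothelial point moves to 0.614 on the right, against 1.53 on the left, and the saline endothelial points stay below 1.

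The share of barcodes with at least 1 UMI was the higher in the cisplatin library, also at equal depth. Any of the 7 genes was found in 11.7% of cisplatin barcodes (10.6% to 12.8%) and 4.13% of saline barcodes (2.71% to 5.99%). With every barcode thinned to 500 UMIs the shares were 7.27% in the cisplatin library and 2.22% in the saline library. Near-empty droplets also differed, at 210 CPM in the cisplatin library and 86.1 CPM in the saline library. The part of free RNA in these shares was not tested. Krt7 was found in 5.73% of cisplatin and 2.70% of saline barcodes, Krt8 in 3.95% of cisplatin and 0.794% of saline barcodes, and Krt18 in 2.47% of cisplatin and 0.952% of saline barcodes. Krt20 was found in 1.37% of cisplatin barcodes, and in 0 of 630 saline barcodes, where 3 counts of 630 are 0.476% and the exact upper limit is 0.584%. This limits barcodes with a UMI, not cells that express the gene. The same limit holds for Krt19, found in 0.378% of cisplatin barcodes, Krt15 in 0.145% and Krt5 in 0.0581%.

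By gate, thinned shares of barcodes with any keratin had overlapping intervals in the cisplatin library. They were 11.5% in the collecting duct gate (5.41% to 20.8%), 7.13% in the proximal tubule gate, 7.69% in the endothelial gate and 6.86% in other. Leukocyte barcodes, which should lack these genes, had a thinned share of 1.33% (0.0338% to 7.21%) at a median of 1028 UMIs. In the saline library the thinned share was 1.80% in the endothelial gate (0.826% to 3.39%), 4.55% in the proximal tubule gate and 0% of 7 barcodes in the collecting duct gate. Before thinning, the collecting duct shares were 17.9% of cisplatin and 28.6% of saline barcodes, and the proximal tubule shares 10.3% of cisplatin and 7.95% of saline barcodes. The endothelial shares were 14.1% of cisplatin and 2.80% of saline barcodes, and those of other 11.2% of cisplatin and 8.57% of saline barcodes.

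Krt8 and Krt18, which pair in the filaments of simple epithelia, were found together in 23 of the 198 cisplatin barcodes with either gene and in 1 of the 10 such saline barcodes. In the cisplatin library the overlap was 13 of 27 among barcodes of at least 10000 UMIs and 10 of 171 among those below. Krt7 and Krt8 met in 31 of 302 cisplatin barcodes with either, and Krt7 and Krt19 in 5 of 205. Krt5 and Krt15 met in 1 of 6, the barcode of 31899 UMIs. Over 10 pools (4 gates and near-empty droplets in each of 2 libraries), the gene most like Krt8 among 10251 genes was Krt18 (Pearson r = 0.98 of log2(CPM + 1)). Rab25, Phgdh, Flvcr1 and Mal2 followed, with r between 0.94 and 0.96. For Krt18 the closest was Krt8, followed by Mal2, Pfn2, Plet1 and Jpt2. Krt7 was closest to Wfdc2 (r = 0.97), then to Gstt1, Cdo1, Epn3 and the gene listed as ccdc198, and its r with Krt8 was 0.67. Krt19 was closest to Ndufa4l2, Sytl1, Lhfp, Dkk3 and Pls1 on few UMIs. The pools share libraries and depth, and small pools share many zeros, so these r values are descriptions.

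Krt8 and Krt18 are also neighbours in the genome. In GRCm38, Krt8 lies on chromosome 15 at 101996698 to 102004482 on the minus strand and Krt18 at 102028180 to 102032027 on the plus strand, so they point away from each other across 23697 bases that hold 0 other annotated genes. Krt7 (101411043 to 101430313, plus) and Krt5 (101707070 to 101712898, minus) are on the same chromosome. Krt20 (99428403 to 99438150), Krt15 (100131758 to 100135928) and Krt19 (100140810 to 100148665) are on chromosome 11, all on the minus strand. Krt7, Krt8 and Krt5 each overlap 1 other gene model (Gm671, Gm36026 and Gm44323), so reads in the overlap are uncertain. Promoters are shown for the simple keratins whose levels differed most clearly in near-empty droplets, as the 60 bases from 50 before the RefSeq start (GRCm38.p6), written 5′ to 3′ on the gene's strand, with the TATA box letters TATAAA in capitals. The windows are chr15:101412353-101412412 (plus) for Krt7, chr15:102004333-102004392 (minus) for Krt8, chr15:102028166-102028225 (plus) for Krt18 and chr11:99438144-99438203 (minus) for Krt20.
Krt7: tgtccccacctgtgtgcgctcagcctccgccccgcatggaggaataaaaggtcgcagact
Krt8: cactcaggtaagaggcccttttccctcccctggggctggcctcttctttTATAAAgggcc
Krt18: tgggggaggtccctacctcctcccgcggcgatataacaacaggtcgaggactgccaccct
Krt20: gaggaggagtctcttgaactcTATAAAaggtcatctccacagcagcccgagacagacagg
The letters begin at position -29 in Krt20 and at -1 in Krt8 relative to the listed start, and are not in the Krt7 and Krt18 windows. Of 32851 promoters, 2.82% hold them on the gene's strand in the same 60 bases, and 13.6% hold them on either strand in 300 bases. Of the 7 genes, 5 had an entry. A match is a description of letters only.

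The wider keratin family was little detected. Of the 46 other genes with a keratin symbol, 14 had a UMI in the cisplatin library and 8 in the saline library. Krt80 had 207 UMIs in the cisplatin library and 79 in the saline library, and Krt10, a keratin of differentiated epidermis, had 93 cisplatin and 55 saline UMIs. Krt12, known from cornea, had 38 cisplatin and 0 saline UMIs, and Krt23 had 35 cisplatin and 6 saline UMIs. In barcodes of at least 500 UMIs, Krt80 was at 16.3 CPM in the cisplatin library and 33.7 CPM in the saline library, a ratio of 0.484 (0.323 to 0.737). Krt10 was at 6.26 CPM in cisplatin and 26.6 CPM in saline barcodes, a ratio of 0.235 (0.136 to 0.408). Krt80 and Krt10 were thus lower in the cisplatin barcodes. In the same barcodes Krt12 had 8 cisplatin and 0 saline UMIs, and Krt23 had 10 cisplatin and 1 saline UMIs.

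Vimentin and the other filament genes took a mixed course in barcodes of at least 500 UMIs. Of 7 measured genes outside the keratins, 3 were at least 1.5-fold higher in the cisplatin library and 3 lower. Among all 12243 genes measured in these barcodes, 29.5% were higher and 27.7% lower. Vim, the filament of endothelial and mesenchymal cells, was at 191 CPM in the cisplatin library and 1643 CPM in the saline library, a ratio of 0.116 (0.107 to 0.126). Nes was at 82.9 CPM in cisplatin and 136 CPM in saline barcodes, and Lmna, a nuclear lamin, at 122 CPM in cisplatin and 203 CPM in saline barcodes. Des, desmin of muscle and pericytes, was at 23.7 CPM in cisplatin and 3.55 CPM in saline barcodes.

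Genes that anchor keratin filaments were less uniform. In barcodes of at least 500 UMIs 29.5% of all genes measured were higher and 27.7% lower. Of 11 measured desmosome and plakin genes, 8 were at least 1.5-fold higher in the cisplatin library and 1 lower, with a median log2 ratio of 1.52. Their 4 most abundant members had ratios from 0.390 to 1.51. Dst, which encodes dystonin, was at 412 CPM in cisplatin and 341 CPM in saline barcodes. Plec, which encodes plectin, was at 131 CPM in cisplatin and 335 CPM in saline barcodes. Jup, which encodes plakoglobin, was at 143 CPM in cisplatin and 149 CPM in saline barcodes, and Pkp4 at 178 CPM in cisplatin and 118 CPM in saline barcodes, a ratio of 1.51 (1.25 to 1.83). In near-empty droplets 3 of the 11 measured were higher and 3 lower, beside 17.9% of all genes higher and 24.9% lower.

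Of the epithelial junction and surface genes in barcodes of at least 500 UMIs, 13 of 14 measured were at least 1.5-fold higher in the cisplatin library and 1 lower (median log2 ratio 1.54). Among all genes measured there, 29.5% were higher and 27.7% lower. Cdh16, the kidney cadherin, was at 182 CPM in cisplatin and 62.9 CPM in saline barcodes. Epcam, an epithelial adhesion protein, was at 92.1 CPM in cisplatin and 28.4 CPM in saline barcodes. Tjp1, a tight junction scaffold that endothelium also makes, was the exception at 116 CPM in cisplatin and 292 CPM in saline barcodes. In near-empty droplets 5 of 14 were higher and 3 lower, beside 17.9% of all genes higher and 24.9% lower.

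Tubule injury genes differed in near-empty droplets too, where 9 of 12 were at least 1.5-fold higher in the cisplatin library and 0 lower (median log2 ratio 1.38). Among all genes measured in these droplets, 17.9% were higher and 24.9% lower. Spp1, osteopontin, was at 1567 CPM in cisplatin droplets and 91.8 CPM in saline droplets, 17.1-fold higher (15.3 to 19.1). Lcn2, neutrophil gelatinase-associated lipocalin, was at 160 CPM in cisplatin and 1.62 CPM in saline droplets, 98.6-fold higher (44.8 to 271). Clu, clusterin, was at 224 CPM in cisplatin and 74.8 CPM in saline droplets, and Cd24a at 242 CPM in cisplatin and 107 CPM in saline droplets. In barcodes of at least 500 UMIs 7 of the 12 were higher and 2 lower, beside 29.5% of all genes higher and 27.7% lower. Of the 12, 2 had 0 UMIs in the saline barcodes, passed the filter through the cisplatin barcodes alone and so had to be higher. Of the loop and distal markers, 1 of 9 was higher in cisplatin near-empty droplets and 6 lower. The 1 was Wfdc2, at 181 CPM in cisplatin droplets and 72.4 CPM in saline droplets, 2.50-fold higher (2.14 to 2.94), while Slc12a1, the cotransporter of the thick ascending limb, was at 517 CPM in cisplatin and 1121 CPM in saline droplets. In the urothelial list, Sprr1a had 48 UMIs in cisplatin droplets and 4 in saline droplets, and Gata3 had 41 in cisplatin and 145 in saline droplets. The 14 collecting duct markers summed to 550 CPM in cisplatin and 469 CPM in saline droplets, a ratio of 1.17, beside the keratin ratio of 2.44 in the same droplets.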

How the data were processed

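The authors deposited unfiltered matrices of raw UMI counts, without normalization, for 2 libraries. The submitters' processing notes name Cell Ranger 6.0.1 and the build mm10, whereas version 4 stands in the file headers, and which is right was not resolved. The cells the authors kept are not given in the sources used here. From the counts, UMIs were summed over barcodes of a pool and divided by all UMIs of the pool (CPM). Ratios and shares have exact Clopper-Pearson 95% intervals (SciPy 1.17.1, pandas 2.3.3, Python 3.11.15). UMIs are counts of molecules, and intervals and floors cover counting error only. No test was possible with 1 library per group. A gene was measured with at least 20 UMIs in both libraries together, and higher or lower meant 1.5-fold. A gene at 0 was set to a floor of 3 UMIs per pool, and a bound was called only in the direction it bounds. Thinning drew 500 UMIs per barcode with a fixed seed. No doublet caller was run, so mixed barcodes remain. The intervals were tested on simulated data. The members, gates and lists were chosen with earlier results of these data known. Named genes were the 7 members, the 4 genes of each list with the most UMIs, and the 5 genes most like Krt8, Krt18, Krt7 and Krt19, beside markers named in single barcodes, which were chosen after their values were seen. Of the 4 genes named from the list of epithelial junction genes, 1 is left out and not reported here. Gene positions are from GENCODE for GRCm38, and promoter sequences from RefSeq. The alternatives changed the UMI minimum, mitochondrial limit, gates, near-empty range, scaling and filter. Those that left out deep barcodes or the richest barcode of a gate, or asked for a marker share of 0.5% were added after the data were seen.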

Additional observations from a re-analysis of the deposited data

How the results depend on the processing

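No paired analysis was possible because each condition has 1 library, and no library could be left out. Of 371 values of a result under an alternative, 292 stayed within the interval of the value reported, 69 moved and 10 turned direction. A turn was counted only for ratios at least 1.5-fold higher or lower with an interval clear of 1. For the share of all genes called, staying meant within 1.5-fold of the value reported. The cause was not tested. Of the 40 that concern the sum of the 7 genes, the share of barcodes and the share of all genes called in barcodes of at least 500 UMIs, or the sum in near-empty droplets, 23 stayed and 17 moved. The cisplatin share of barcodes with any keratin was 7.17% at a minimum of 300 UMIs, 23.7% at 1000 UMIs, 14.3% with at most 20% mitochondrial UMIs and 7.27% after thinning, and the saline share after thinning was 2.22%. The cisplatin level in barcodes of at least 500 UMIs, 1.39 times the near-empty level, became 1.12 times at 300 UMIs, 1.84 at 1000 UMIs, 1.61 under the mitochondrial limit, 1.23 without the richest barcode, 1.86 with near-empty droplets of 1 to 50 UMIs and 0.725 without barcodes of at least 10000 UMIs. The saline value was 0.282 without the richest barcode. The cisplatin to saline ratio of these barcodes was 11.6 at 1000 UMIs, 10.7 without the richest barcode and 5.10 without the deep ones. In near-empty droplets it was 1.74 at 1 to 50 UMIs and 3.38 over other than mitochondrial genes. In the collecting duct gate it turned to 1.51 with 1 marker more, 2.55 without the richest barcode of each library (the cisplatin one lies outside this gate), 1.65 without the richest barcode of the gate in each library and 1.04 without deep barcodes, and that of Krt18 to 1.24 with 1 marker more and 1.15 with the 0.5% rule. Against near-empty droplets, the cisplatin endothelial gate turned to 0.860 with 1 marker fewer and 0.614 without deep barcodes, where the collecting duct gate was at 0.826 and other at 0.848. Depth limits most the saline gates, with 18 keratin UMIs or fewer each.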
